A study of Mus musculus with 4 samples.

Results

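The genes that make prostaglandins, thromboxane and leukotrienes were followed across 4 arrays of mouse bone marrow-derived macrophages. The members were taken by name from a list of 10 genes, and 9 of them had a probeset with exactly 1 gene symbol in the platform annotation, out of 19938 genes so named. These 9 were Pla2g4a, Ptgs2, Hpgds, Ptges, Tbxas1, Alox5, Alox5ap, Lta4h and Ltc4s, each with 1 probeset. The signal of Ptgs1, the cyclooxygenase known as the constitutive form, was not analysed here.

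Eicosanoids are short-lived lipid signals made from arachidonic acid. The cytosolic phospholipase A2 that Pla2g4a encodes frees arachidonic acid from membranes. The cyclooxygenases turn it into prostaglandin H2, from which terminal synthases make prostaglandin D2 (Hpgds), prostaglandin E2 (Ptges) or thromboxane A2 (Tbxas1). In the other branch 5-lipoxygenase (Alox5), helped by its activating protein (Alox5ap), makes leukotriene A4, which Lta4h turns into leukotriene B4 and Ltc4s into the cysteinyl leukotriene C4. Macrophages are a known source of both classes, and IL-4 is the classical inducer of their alternatively activated state through the transcription factor Stat6.

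Macrophages were grown from bone marrow for 7 days with 10% L929 supernatant, which supplies M-CSF, then kept for 24 h in medium, with or without IL-4, before sorting for F4/80. The 4 groups, of 1 array each, were wild-type BALB/c cells in medium, wild-type BALB/c cells with IL-4, Stat6-/- cells of the strain 4get/Stat6-/- in medium, and Stat6-/- cells of that strain with IL-4. The 4get allele is a reporter of IL-4 expression, and the wild-type strain label does not carry it, so that the loss of Stat6 and the reporter background cannot be told apart. The IL-4 dose is written as 10 µg/mL with the samples but 10 mg/mL with the series, and which unit was meant could not be settled. The number of animals behind each array is not given in the sources used here.

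Values are log2 RMA signals, and a difference of 1 is a change of 2-fold. Signals under 2.52, the median of all single-symbol probesets, are said to be under the floor. A gene is called higher or lower when a pair of arrays differed by at least 1 with the higher array at or above the floor, and "rose" and "fell" are used of such genes alone. With 1 array per group no difference has a replicate check, and no test or error could be given and precision is limited by having only 4 arrays. Signals of different genes come from different probes and are not set against each other.

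Stat6 read 7.34 in wild type in medium and 6.68 with IL-4, against 4.54 and 4.25 in Stat6-/- cells. Both arrays labelled as knockouts were thus lower, though still above the floor. The array medians lay between 2.23 and 2.29. All 8 macrophage markers, among them Adgre1 (F4/80), Csf1r and Cd68, were above the floor on every array. Hpgds, Ltc4s and Alox5 are also known from mast cells and basophils: of 10 markers of those cells 9 were under the floor on all arrays, and the tenth, Tpsb2, reached 2.55 on the Stat6-/- array with IL-4. The 4 platelet and megakaryocyte markers named on the array were under the floor on all arrays except Ppbp, which read 2.60 in wild type in medium and 3.35 with IL-4. The floor was reached on at least 1 array by 3 of 9 markers of neutrophils and their precursors, 2 of 5 of eosinophils, 1 of 6 of dendritic cells, 1 of 4 of T cells, 1 of 5 of B cells and 3 of 6 of fibroblasts. Since the RNA came from all cells of each F4/80 sort together, fewer cells of a type and less RNA per cell cannot be told apart.

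The start-site windows of the 4 members that changed with IL-4 in wild type are shown because the direction differed among them: Hpgds fell, while Pla2g4a, Ptgs2 and Ltc4s rose. Each runs from 250 bases before to 50 after a RefSeq transcript start (GRCm38.p6), 5′ to 3′ on the gene's own strand. Capitals mark matches, on either strand, to TTCNNNNGAA (the spacing that Stat6 prefers), TTCNNNGAA (the spacing of other STAT factors), GAGGAAGT (PU.1, a factor of myeloid cells), TGANTCA (AP-1), TATAAA (the TATA box), TGACGT (part of the cyclic AMP response element) and TTGCGCAA (C/EBP). The last pair was added after the windows had been read.

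The Hpgds window (chr6:65144681-65144980, minus strand), that of the member that fell, holds the PU.1 letters 49 bases before the start:
Hpgds: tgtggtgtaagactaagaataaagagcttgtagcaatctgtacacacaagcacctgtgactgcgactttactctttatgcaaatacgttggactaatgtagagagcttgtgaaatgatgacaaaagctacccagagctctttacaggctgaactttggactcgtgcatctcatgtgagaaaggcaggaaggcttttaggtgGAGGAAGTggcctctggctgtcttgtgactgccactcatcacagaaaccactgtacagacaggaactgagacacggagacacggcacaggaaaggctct

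The Ptgs2 window (chr1:150099781-150100080, plus strand) holds the C/EBP letters 69 bases before the start and the TGACGT letters, read on the opposite strand, within the 50 bases after this RefSeq start:
Ptgs2: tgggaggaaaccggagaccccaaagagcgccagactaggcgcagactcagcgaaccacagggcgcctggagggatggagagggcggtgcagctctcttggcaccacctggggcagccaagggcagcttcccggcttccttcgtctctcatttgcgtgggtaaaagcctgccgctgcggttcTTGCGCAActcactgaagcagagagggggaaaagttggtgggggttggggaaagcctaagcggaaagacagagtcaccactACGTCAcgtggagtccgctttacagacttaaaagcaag

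The Ltc4s window (chr11:50238483-50238782, minus strand) holds no match to any of the motifs:
Ltc4s: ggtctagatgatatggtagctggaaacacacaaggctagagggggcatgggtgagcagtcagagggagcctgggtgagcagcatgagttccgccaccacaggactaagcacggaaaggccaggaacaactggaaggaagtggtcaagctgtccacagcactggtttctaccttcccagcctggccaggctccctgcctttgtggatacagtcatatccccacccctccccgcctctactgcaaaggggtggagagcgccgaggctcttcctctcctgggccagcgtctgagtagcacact

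Pla2g4a has 2 RefSeq starts, the upstream one with no match (chr1:149961241-149961540, minus strand) and the downstream one (chr1:149922390-149922689, minus strand) with the TATA letters on the opposite strand 200 bases before the start:
Pla2g4a upstream: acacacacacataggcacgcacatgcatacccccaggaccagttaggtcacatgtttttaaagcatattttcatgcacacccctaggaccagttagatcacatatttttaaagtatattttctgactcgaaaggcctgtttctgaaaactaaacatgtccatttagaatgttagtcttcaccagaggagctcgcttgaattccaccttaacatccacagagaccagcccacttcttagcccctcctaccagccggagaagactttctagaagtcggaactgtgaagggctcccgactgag
Pla2g4a downstream: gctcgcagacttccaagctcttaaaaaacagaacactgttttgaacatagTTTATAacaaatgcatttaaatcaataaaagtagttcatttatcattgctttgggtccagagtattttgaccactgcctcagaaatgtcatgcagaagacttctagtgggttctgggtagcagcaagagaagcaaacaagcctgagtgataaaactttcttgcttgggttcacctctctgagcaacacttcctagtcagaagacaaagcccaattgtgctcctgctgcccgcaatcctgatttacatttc

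Neither STAT spacing occurred in the windows of these 4 members; among all 32851 windows, 6.95% held TTCNNNNGAA and 8.30% TTCNNNGAA. Windows were matched for 8 of the 9 members; that of Alox5ap was not analysed here. Among the others, the Stat6 spacing occurred as TTCAAAAGAA in the window of Ptges, 197 bases before the start, and as TTCTGGGGAA in that of Tbxas1, 121 bases before it. Neither gene changed by 2-fold in any comparison, but Ptges was near the floor in wild type and under it on both Stat6-/- arrays. The window of Tbxas1 also held TGANTCA, present in 7.81% of all windows, and overlapping TATAAA letters on both strands, present in 13.6%. The PU.1 letters occurred in 3.20% of windows and also in that of Ptgs1, the TGACGT letters in 7.51% and the C/EBP letters in 0.183%. These matches are descriptions of the sequence alone, and sites outside the windows were not searched.

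In wild-type macrophages IL-4 went with opposite changes among the genes that lead to prostaglandin D2. Pla2g4a, whose release step feeds both branches, rose by 3.81-fold. Within the prostaglandin branch Ptgs2 rose by at least 3.04-fold. The prostaglandin D2 synthase Hpgds fell by 2.56 on the log2 scale, a change of 5.90-fold. In the leukotriene branch Ltc4s, at the cysteinyl leukotriene step, rose by 2.32-fold. In total 3 of 9 members rose and 1 fell. Of the 10282 genes that could pass the rule, 2.96% rose and 6.78% fell. The members were chosen with earlier results of these data known, so the count beside these shares is a description alone. The median member difference was 0.29, with a median size of 0.70, against -0.11 and a size of 0.35 over all these genes; with the floor at the 75th percentile the member median turned to -0.17.

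**Figure D1:**
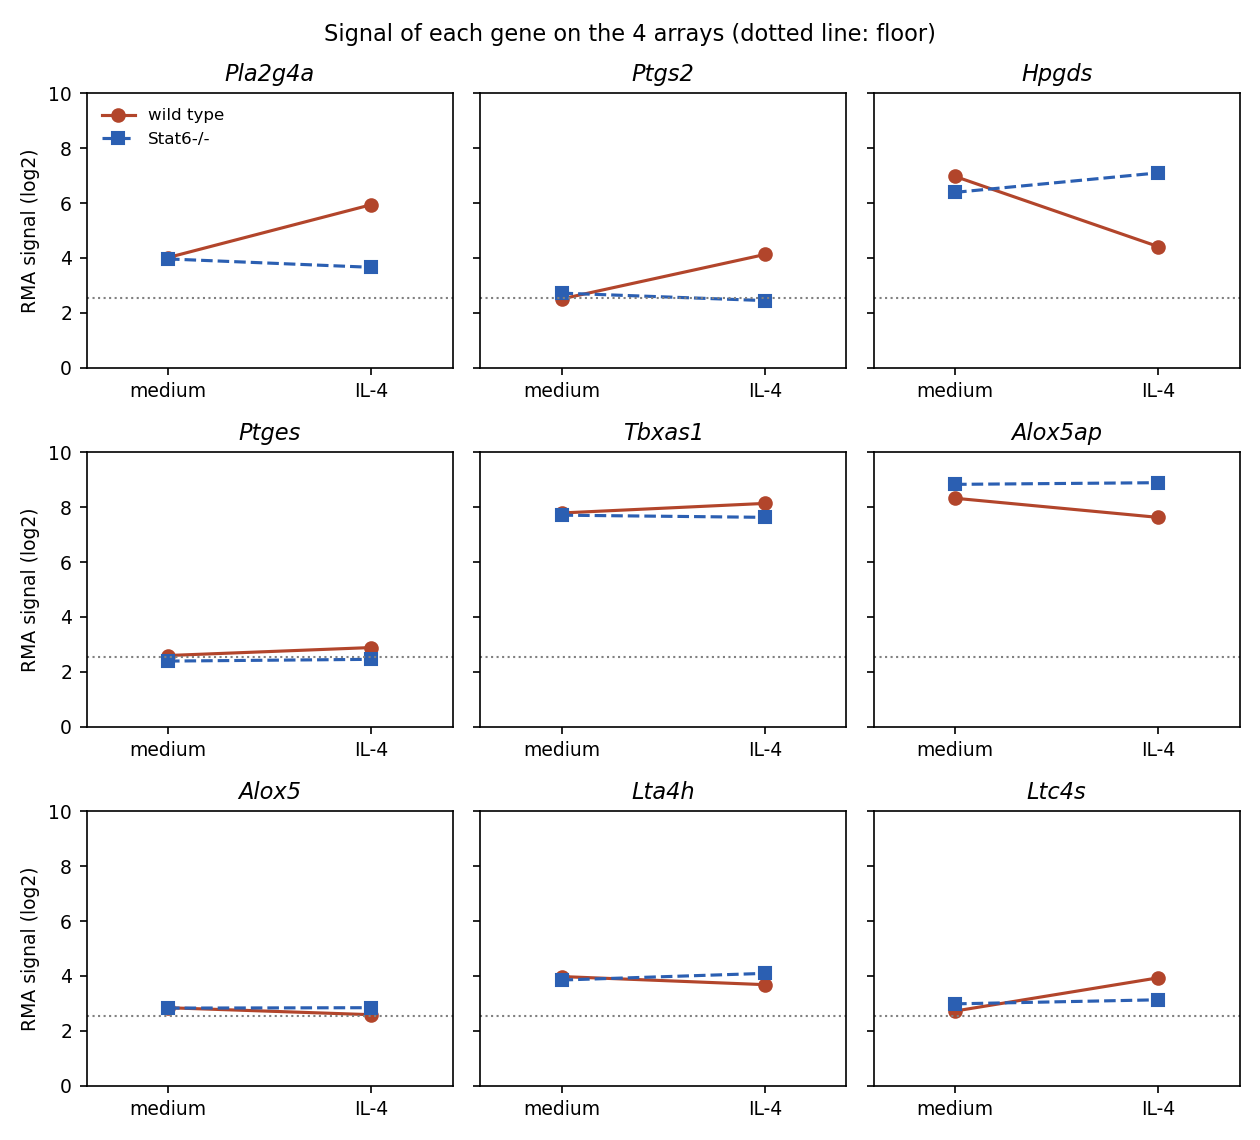
RMA signals (log2, vertical axis) of the 9 synthesis genes in medium and with IL-4, with circles and solid lines for wild type and squares and dashed lines for Stat6-/- cells. Each point is 1 array and the dotted line is the floor at 2.52; the lines part with IL-4 for Pla2g4a, Ptgs2, Hpgds and, less so, Ltc4s and Alox5ap.

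The members are given in pathway order, starting with the release step. Pla2g4a read 4.02 in medium and 5.94 after IL-4 in wild type, and 3.97 and 3.66 in the same order in Stat6-/- cells. The wild-type array with IL-4 stood above the other three, which lay within 0.36 of each other. Its increase of 1.93 was the 51st largest of 10282 genes.

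Ptgs2, the inducible cyclooxygenase, read 2.51 in medium and 4.13 after IL-4 in wild type, and 2.72 and 2.45 in the same order in Stat6-/- cells. Here too 1 array stood apart, wild type with IL-4, and the others lay within 0.27 of each other around the floor. Since the array in medium was just under the floor, the increase is given as the bound above.

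Hpgds, the hematopoietic prostaglandin D synthase, read 6.97 in medium and 4.41 after IL-4 in wild type, and 6.39 and 7.11 in the same order in Stat6-/- cells. The wild-type array with IL-4 was the low one, by 1.98 against the next. The fall was the 32nd largest of 10282 genes, and 0.593% of them had a difference of this size or more in either direction. Macrophage markers moved the same way in that pair of arrays, with 4 of 8 lower and a median of -0.92, beside 6.78% lower among all genes. Cd14 (-2.74) and Fcgr1 (-1.76) were in front. Adgre1, the gene of the marker used for sorting, was among the 4, with 10.75 in medium and 9.54 after IL-4 in wild type (-1.215). In Stat6-/- cells its IL-4 difference was -0.23. The part of these markers in the Hpgds difference was not tested.

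The other terminal synthases of the prostaglandin branch did not pass the rule. Ptges, the inducible prostaglandin E synthase, read 2.59 and 2.89 in wild type in medium and with IL-4, and 2.39 and 2.46 in Stat6-/-, where both arrays were under the floor. Tbxas1, thromboxane A synthase, read 7.79 and 8.14 in wild type and 7.71 and 7.64 in Stat6-/-. Its 4 signals spanned 0.51, and those of Ptges 0.49.

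Of the leukotriene genes, Ltc4s, leukotriene C4 synthase, read 2.72 in medium and 3.93 after IL-4 in wild type, and 2.98 and 3.13 in the same order in Stat6-/- cells. The wild-type array with IL-4 was again the high one, although by less than for Pla2g4a and Ptgs2. Its increase of 1.21 ranked 190th, and 5.83% of genes had a difference of at least this size in either direction.

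Alox5ap, the 5-lipoxygenase activating protein, read 8.33 in medium and 7.63 after IL-4 in wild type, and 8.84 and 8.90 in the same order in Stat6-/- cells. Both Stat6-/- arrays lay above both wild-type arrays. The wild-type difference with IL-4, -0.70, did not reach the rule, and 21.1% of genes differed by as much.

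Alox5, 5-lipoxygenase, read 2.84 and 2.59 in wild type and 2.83 and 2.84 in Stat6-/-, close to the floor on all 4 arrays. Lta4h, leukotriene A4 hydrolase, read 3.98 and 3.68 in wild type and 3.85 and 4.10 in Stat6-/-. The spans over the arrays were 0.26 and 0.41, and in wild type 62.7% and 56.9% of genes had IL-4 differences at least as large as theirs (-0.26 and -0.30).

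In Stat6-/- macrophages none of the synthesis genes passed the rule with IL-4: 0 of 8 rose and 0 fell, Ptges being under the floor on both arrays. Changes were rare among all 10410 genes, with 0.240% higher and 0.115% lower, so this count is close to the background. The median member difference was 0.04 and the overall one -0.05. The largest member difference was that of Hpgds, 0.71, opposite to its fall in wild type; it was the 147th highest of 10410, and 2.54% of genes had a difference of this size or more. Pla2g4a (-0.31) and Ptgs2 (-0.27) also had signs opposite to wild type, at sizes that 28.5% and 34.2% of genes reached.

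**Figure D2:**
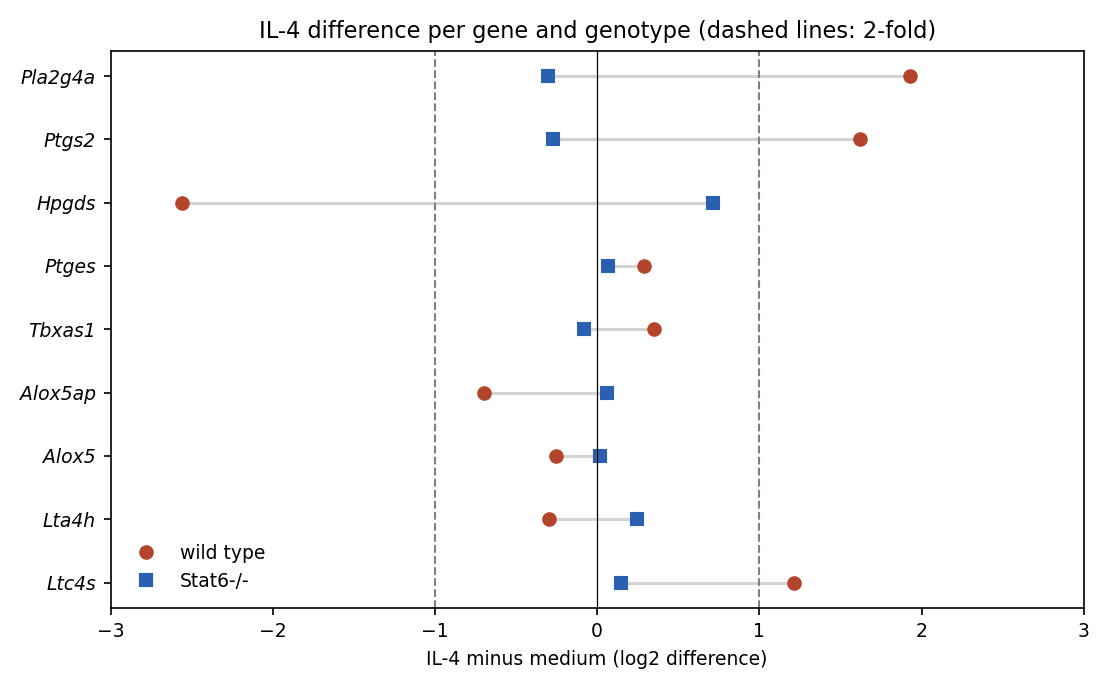
Log2 difference between IL-4 and medium (horizontal axis) for each of the 9 genes, in wild type (circles) and Stat6-/- cells (squares), each from 1 pair of arrays. Dashed lines mark 2-fold; Pla2g4a, Ptgs2 and Ltc4s lie beyond the upper line in wild type and Hpgds beyond the lower line at -2.56, while all squares lie between the lines.

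Subtracting the IL-4 effect of Stat6-/- cells from that of wild type asks how far each response went with the genotype. This difference of IL-4 effects passed the 2-fold rule for 4 of 9 members: Pla2g4a (2.24), Ptgs2 (1.89, or 1.80 with signals under the floor raised to it) and Ltc4s (1.06) were higher, and Hpgds (-3.27) was lower. Over 10798 genes 3.20% were higher and 5.77% lower. Hpgds had the 9th lowest value of all these genes, Pla2g4a the 33rd highest and Ltc4s the 301st; Ptgs2, under the floor on 2 arrays, is given no rank. The values of the others were -0.76 for Alox5ap, -0.54 for Lta4h, 0.43 for Tbxas1, -0.27 for Alox5 and 0.23 for Ptges. The members had a median of 0.23, which turned to -0.17 with the floor at the 75th percentile, and all genes one of -0.07.

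**Figure D3:**
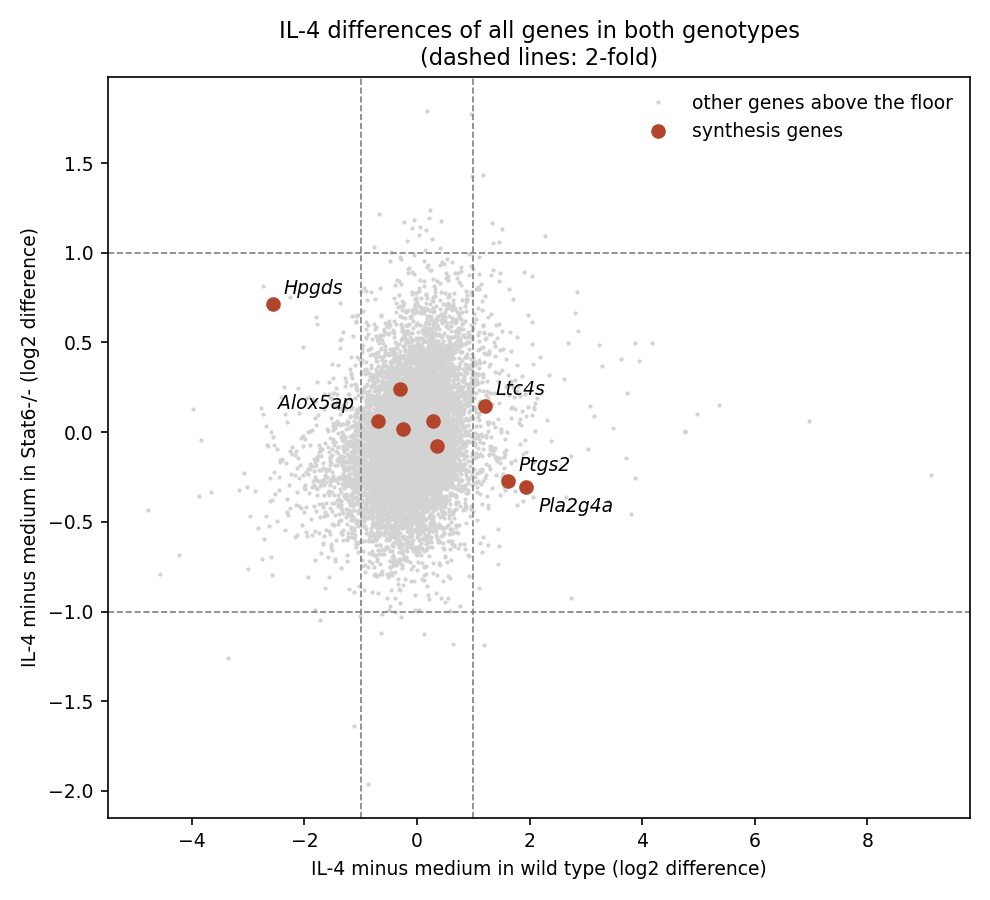
IL-4 minus medium (log2 difference) in wild type (horizontal axis) and in Stat6-/- cells (vertical axis) for the 10798 genes above the floor on at least 1 array, 1 point per gene, with the 9 synthesis genes as large circles and those with a wild-type difference over 0.6 in size named. Hpgds lies at the upper left, at -2.56 and 0.71, and Pla2g4a and Ptgs2 on the right below 0; dashed lines mark 2-fold.

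Between the genotypes in medium, none of 9 members passed the rule, against 0.301% higher and 1.15% lower among 10299 genes. The member differences, Stat6-/- minus wild type, ran from -0.58 for Hpgds to 0.51 for Alox5ap, with a median of -0.05 (0.05 with quantile normalization applied again and 0.07 with the intensity trend removed) and an overall median of -0.11. For Alox5ap 15.7% of genes had a difference of at least its size, and for Hpgds 11.1%.

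With IL-4 the genotypes differed at 4 of 9 members. Hpgds was 6.46-fold and Alox5ap 2.40-fold higher in Stat6-/- cells, while Pla2g4a was lower by 4.87-fold and Ptgs2 by at least 3.04-fold. Among 10433 genes 4.01% were higher and 4.83% lower. Ltc4s (-0.80), Tbxas1 (-0.51), Ptges (-0.43), Lta4h (0.41) and Alox5 (0.26) did not pass. The median was -0.43 over the members, or 0.38 with the floor at the 75th percentile, and -0.0001 over all genes. This comparison shares the wild-type array with IL-4 with the wild-type comparison above, so the values of both depend on that array. Pla2g4a, Ptgs2 and Hpgds passed the rule in both, Ltc4s in the wild-type comparison and Alox5ap in the genotype comparison.

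Genes whose 4 signals ran most like those of the members were found by the root mean square distance between signals centred on each gene's mean, over 4 arrays and 10797 genes. Nearest to Hpgds were Hal, which encodes a histidine-degrading enzyme (distance 0.11; 6.07 and 3.34 in wild type, 5.52 and 6.33 in Stat6-/-), Cd14, a receptor for bacterial lipopolysaccharide (0.24), and Saa3, an acute phase protein (0.24). Nearest to Pla2g4a were Irf4, a transcription factor (0.07; 2.75 and 4.83 in wild type, 2.73 and 2.57 in Stat6-/-), Slc1a5, a glutamine transporter (0.09), and Mcf2l (0.12). Nearest to Ptgs2 were Asap2 (0.06), Acaca, acetyl-CoA carboxylase (0.06; 4.14 and 5.62 in wild type, 4.31 and 3.96 in Stat6-/-), and Plxdc2 (0.07). Nearest to Ltc4s were Pmepa1 (0.04), Uqcrfs1, a subunit of respiratory complex III (0.04), and Snord82, a small nucleolar RNA gene (0.04).

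The rest of the eicosanoid pathway was read from 5 lists of 62 genes, of which 56 were named on the array and 33 reached the floor on at least 1 array. Like the members, the lists were chosen with earlier results of these data known. With IL-4 in wild type 3 of 33 rose and 4 fell, beside 2.96% and 6.78% of all genes. In Stat6-/- 0 of 30 rose or fell, beside 0.240% and 0.115%. In the difference of IL-4 effects 4 of 33 were higher and 2 lower, beside 3.20% and 5.77%. Between genotypes 0 of 31 differed in medium, beside 0.301% higher and 1.15% lower. With IL-4 1 of 32 was higher and 5 lower in Stat6-/- cells, beside 4.01% and 4.83%.

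Receptors for the products changed in both directions. Ptgir, the prostacyclin receptor, rose (3.46 and 5.31 in wild type, 3.46 and 3.50 in Stat6-/-). Ptger4, the prostaglandin E2 receptor EP4, fell by 1.58 (6.12 and 4.55 in wild type, 5.68 and 5.68 in Stat6-/-). These were 2 of 5 prostanoid receptors above the floor, out of 9 on the array, beside 2.96% higher and 6.78% lower among all genes. The receptors of prostaglandin D2, Ptgdr and Ptgdr2, were under the floor on all 4 arrays.

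Both leukotriene receptors above the floor changed in wild type, out of 4 on the array, beside 2.96% higher and 6.78% lower among all genes. Ltb4r1, the high-affinity leukotriene B4 receptor, rose from 2.03, under the floor, to 3.50, a bound of at least 1.97-fold that falls just short of 2-fold, and read 2.28 and 2.13 in Stat6-/-. It did not pass the rule with the floor at the 75th percentile or with signals raised to the floor. Cysltr1, a cysteinyl leukotriene receptor, fell by 1.04 (6.92 and 5.89 in wild type, 6.99 and 6.66 in Stat6-/-). It did not pass the rule with quantile normalization applied again or with the intensity trend removed, and its smallest difference over the settings was -0.86.

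Among other prostanoid synthases and prostaglandin-degrading enzymes, 1 of 7 changed in wild type, beside 2.96% higher and 6.78% lower among all genes. Ptges2, a second prostaglandin E synthase, rose (3.17 and 4.56 in wild type, 3.44 and 3.36 in Stat6-/-), but did not pass with the floor at the 75th percentile. Ptges3, known as both a prostaglandin E synthase and an Hsp90 co-chaperone, read 8.01 and 8.27 in wild type and 7.52 and 7.41 in Stat6-/-. Ptgds, the lipocalin-type prostaglandin D synthase, and Hpgd, which degrades prostaglandins, were under the floor on all arrays.

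Of the other leukotriene and lipoxygenase genes 1 of 8 changed in wild type, beside 2.96% higher and 6.78% lower among all genes. Ggt5, which trims leukotriene C4 to leukotriene D4, fell by 1.03 (3.57 and 2.54 in wild type, 2.80 and 3.20 in Stat6-/-), but did not pass with quantile normalization applied again (-0.90) or with the floor at the 75th percentile. Abcc1, an exporter of leukotriene C4, passed the rule in the difference of IL-4 effects (1.07; 6.01 and 6.76 in wild type, 5.51 and 5.20 in Stat6-/-). Dpep2, a dipeptidase acting on leukotriene D4, read 8.14 and 8.79 in wild type and 8.14 and 8.09 in Stat6-/-. Alox15, a lipoxygenase known from resident peritoneal macrophages, stayed under the floor throughout, reaching at most 1.63.

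Of 11 phospholipases and genes of arachidonate handling, Lpcat2, which reacylates lysophospholipids, fell by 1.08 in wild type (8.38 and 7.30, against 8.05 and 7.41 in Stat6-/-) and by less than the rule with the intensity trend removed (-0.97). Among all genes 6.78% were lower in wild type. In Stat6-/- cells the IL-4 difference of Lpcat2 had the same sign, -0.64, a size that 4.17% of genes reached. Its difference of IL-4 effects, -0.44, did not pass the rule. Pla2g7, the secreted platelet-activating factor acetylhydrolase, read 10.26 and 10.00 in wild type and 9.82 and 9.41 in Stat6-/-.

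**Figure D4:**
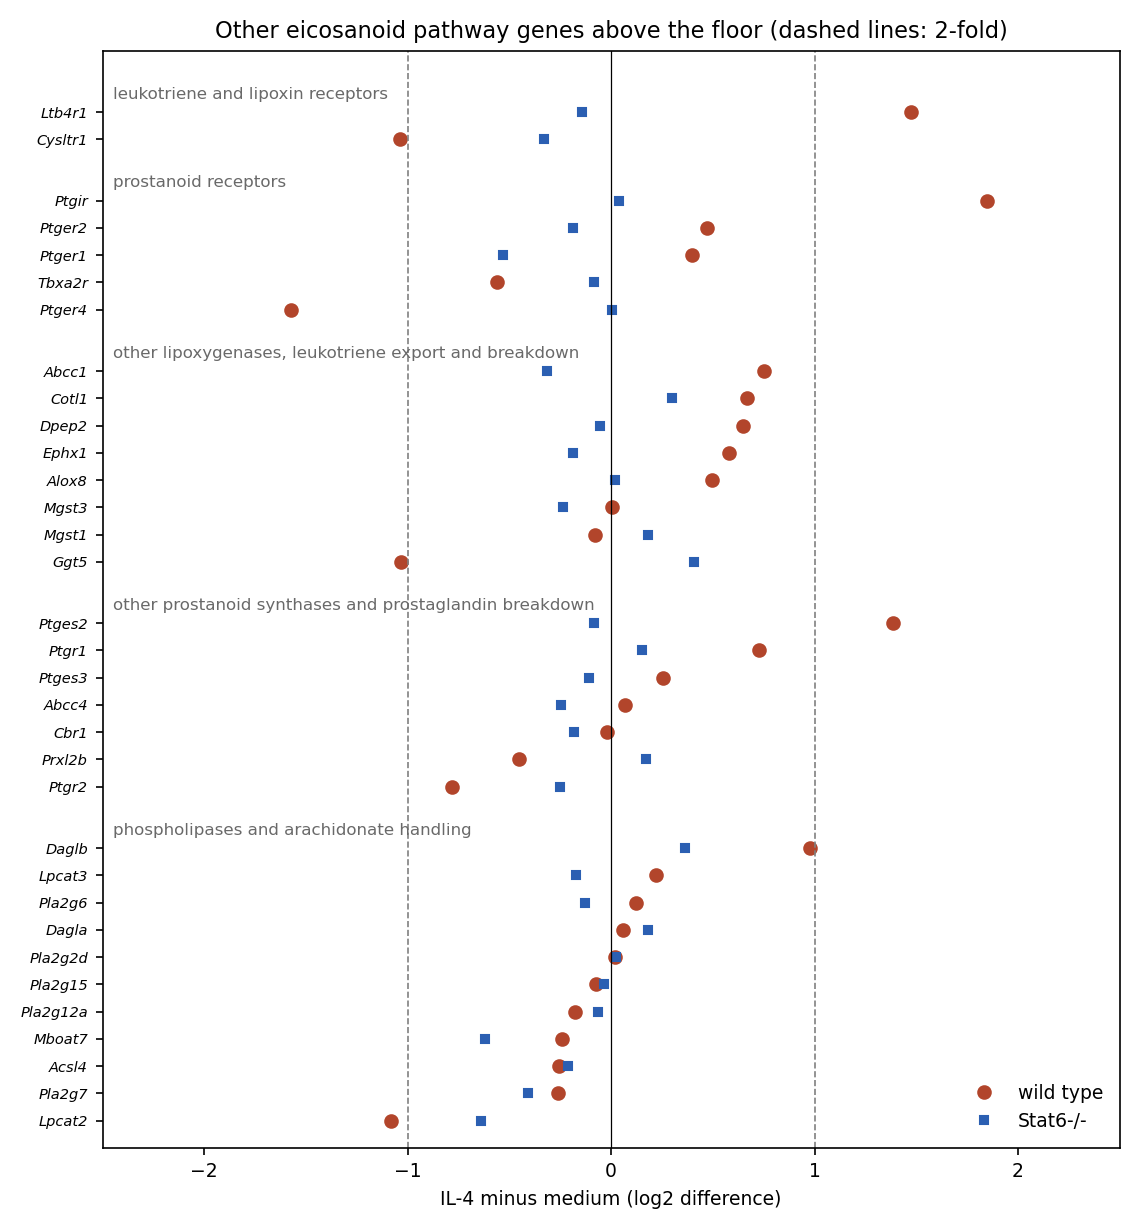
Log2 difference between IL-4 and medium (horizontal axis) for the 33 other eicosanoid pathway genes above the floor, grouped by list, in wild type (circles) and Stat6-/- cells (squares), each from 1 pair of arrays. Dashed lines mark 2-fold; in wild type Ptgir, Ltb4r1 and Ptges2 lie beyond the upper line and Ptger4, Lpcat2, Cysltr1 and Ggt5 beyond the lower one, while all squares lie between the lines.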

How the data were processed

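The deposited values are log2 signals, 1 for each probeset on each array, made with RMA in Affymetrix Expression Console per the submitters' processing notes. RMA corrects background, normalizes arrays by quantiles and summarises probes, and it pulls low signals together, which understates fold changes near the floor. For its version and the array's genome build nothing is given in the sources used here, and the log base was read from the range of the values.

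Of 35557 probesets, 21789 had 1 symbol, 1621 several and 12147 none in the annotation used; 21698 matched a RefSeq gene, and 0 symbols changed. Each gene took the probeset with the highest mean signal. Differences were computed in Python 3.11.15 with pandas 2.3.3; lowess (fraction 0.3) came from statsmodels 0.14.6. The calling code was tested on simulated data. The 95th percentile of 1027 olfactory receptor genes, assumed silent, lay between 1.91 and 2.07. Members and lists were chosen with earlier results of these data known. Named from each list were genes passing the rule in an IL-4 comparison or the difference of IL-4 effects, and the one with the highest signal in wild type in medium; Ptgds, Hpgd, Ptgdr, Ptgdr2 and Alox15 were chosen after their values were seen. For members passing in the difference, the 3 nearest genes are given. The alternatives are in the closing section. Promoter windows came from RefSeq (GRCm38.p6).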

Additional observations from a re-analysis of the deposited data

Results flagged for a closer look

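Hpgds, Pla2g4a and Ptgs2 passed the rule with IL-4 in wild type and had IL-4 differences of the opposite sign in Stat6-/- cells, where none of the 3 passed it and Ptgs2 with IL-4 was under the floor. The difference, wild type minus Stat6-/-, was -3.27 for Hpgds, 2.24 for Pla2g4a and 1.89 for Ptgs2. With 1 array per group these differences between the genotypes were not tested. In Stat6-/- cells 2.54%, 28.5% and 34.2% of genes had an IL-4 difference at least as large as those of Hpgds (0.71), Pla2g4a (-0.31) and Ptgs2 (-0.27).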

How the results depend on the processing

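The settings varied were quantile normalization applied again, a shift of the arrays to a common median, an intensity trend taken out by lowess, the mean of all probesets per gene, no floor, a floor at the 75th percentile (4.65), signals raised to the floor, and a 1.5-fold rule. Hpgds and Pla2g4a kept their calls under all 8 in each comparison they passed, and so did Alox5ap with IL-4 between genotypes; Ptgs2 and Ltc4s kept theirs under 7 and were under the 75th percentile floor. With that floor the members higher fell from 3 to 1 with IL-4 in wild type and from 3 to 1 in the difference of IL-4 effects, and the members lower from 2 to 1 between genotypes with IL-4. With the 1.5-fold rule, the members lower went from 1 to 2 in wild type and in the difference of effects, Alox5ap being added, the members higher from 0 to 1 in Stat6-/- (Hpgds), and Ltc4s passed between genotypes with IL-4 (-0.80). The median over the members, which passed the rule in no comparison, changed sign with the 75th percentile floor in 3 comparisons and with 2 normalizations between genotypes in medium. No call reversed.

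Over the alternatives the wild-type difference ran from -2.56 to -2.35 for Hpgds, from 1.93 to 2.14 for Pla2g4a, from 1.61 to 1.69 for Ptgs2 and from 1.21 to 1.28 for Ltc4s. Over all genes, quantile normalization applied again moved the wild-type split from 304 higher and 697 lower to 403 and 488, with the median from -0.11 to 0.02, and that of the difference of effects from 346 and 623 to 420 and 461. The split between genotypes in medium went from 31 and 118 to 42 and 71. Removal of the intensity trend gave 418 and 490 in wild type and 408 and 472 in the difference. Ptgs2, Ptges and Alox5 lie near the floor, where arrays resolve changes poorly. The same limit holds for Ltc4s, which read 2.72 in wild type in medium.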

Other observations

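Among markers of other cells, chosen after their values were seen, Ccr3, a chemokine receptor of eosinophils, read 4.27 in medium and 4.28 after IL-4 in wild type, and 3.26 and 3.75 in the same order in Stat6-/- cells. It passed the rule between genotypes in medium (-1.02). Of the other 4 eosinophil markers, Siglecf was above the floor on all 4 arrays, between 2.63 and 2.83, while Epx, Prg2 and Il5ra stayed under it throughout, reaching at most 1.84.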
